A study of Mus musculus with 24 samples.

Results

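Endothelial cells, which line blood vessels, were compared between 2 mouse models of medulloblastoma, a childhood brain tumour of the hindbrain, and normal adult hindbrain, and the genes described here are those that differed from hindbrain alike in both tumour types. A gene was counted as common when the average of the Wnt and Shh tumour groups, at equal weight, and each tumour group alone differed from hindbrain in one direction at an adjusted p under 0.05 (limma, Benjamini-Hochberg over all genes). All 16 tumour arrays also had to lie beyond all 8 hindbrain arrays. As the measure of likeness, the whole 95% interval of the difference between Wnt and Shh tumours had to stay within 50% of the average change in either direction. Of 22180 genes, 713 met this rule, 353 of them higher and 360 lower in the tumours.

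There were 8 arrays in each group, which the labels describe as biological replicates, and all mice were of mixed strain background. The hindbrain came from adult wild-type mice. The Shh tumours carried Ptch+/-; Ink4c-/-, a lowered dose of the hedgehog receptor with loss of a cell cycle inhibitor encoded by Cdkn2c, and the label names no tissue-specific driver, so that vessel cells carry these alleles too. The Wnt tumours combined Blbp-Cre with the alleles Pik3ca +/flox and Trp53 flox/flox and with Ctnnb1 +/Exon3 flox, and the Blbp promoter, active in glia and neural progenitors, drives the recombinase in them. The labels do not say whether the sorted cells themselves recombined these alleles, nor the ages of the tumour mice or whether animals were pooled. Cells were freed with papain and taken on magnetic beads through Cd105 and Cd144, the products of Eng and Cdh5. Tumour against normal brain and genotype cannot be told apart in this design. Sample codes in the labels run separately for each group, so that handling order, if the codes follow it, cannot be told apart from group either.

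Brain endothelium normally divides rarely, is sealed by tight junctions and carries nutrient transporters that make up the blood-brain barrier. Vessels of tumours are known to sprout behind specialised tip cells, to divide and to lay down new basement membrane, the sheet of laminin and collagen on which they rest. In mitosis, the division of a cell, cyclins A and B switch on the kinase Cdk1, and motor proteins of the kinesin family then pull the copied chromosomes apart. Resident immune cells of the brain, the microglia, touch its vessels and can be carried along when vessel cells are isolated.

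The sort antigens were measured in all groups. Cdh5 lay between 12.63 and 13.03 in Shh and between 12.70 and 12.99 in hindbrain arrays on the deposited log2 scale, and between 11.84 and 12.79 in Wnt arrays. Of 18 endothelial markers none was common and 14 were called lower in the tumour average, which was carried by the Wnt arrays: their median change was -0.92 in Wnt and -0.06 in Shh tumours. The mean of these markers lay between 11.50 and 11.88 in hindbrain, 11.35 to 11.83 in Shh tumour and 9.97 to 11.25 in Wnt tumour arrays, with Wnt arrays 1 and 8 lowest. In arrays of sorted but mixed cells, fewer cells of a type and less RNA per cell cannot be told apart. Cdkn2c was not reduced in the Shh arrays (7.37 to 8.20, against 6.49 to 7.71 in hindbrain). The position of its probes relative to the deletion is not given in the sources used here, so this value is no check of the Ink4c-/- label. Average changes of Ptch1 (-0.03 ± 0.18, standard error, adjusted p = 0.9) and Pik3ca (0.05 ± 0.06, adjusted p = 0.539) missed the threshold in limma, and Ctnnb1 was lower by a small amount (-0.20 ± 0.06, adjusted p = 0.0111). The last call was lost with quantile normalization (adjusted p = 0.0541) and with the endothelial marker mean as a covariate (adjusted p = 0.163).

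The common genes were a small part of a broad difference. In the tumour average 5031 genes (22.7%) were called higher and 4792 (21.6%) lower than in hindbrain, against which 1.59% of all genes were common and higher and 1.62% common and lower. Counts for each list below are to be set beside these shares. Of the called genes, 2543 higher and 2648 lower ones were called in the same direction in both tumour groups, and in 808 and 716 of these the arrays of the tumours and of hindbrain did not overlap. The likeness criterion then left the 353 and 360. Their median change was 1.27 for the higher and -1.21 for the lower genes on the log2 scale, where a change of 1 is 2-fold, and 224 and 214 of them changed by at least that much. Shifting each array to the same median moved the median change of all genes from -0.01 to -0.11 and the share of called genes that were higher from 51.2% to 33.1%.

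**Figure D1:**
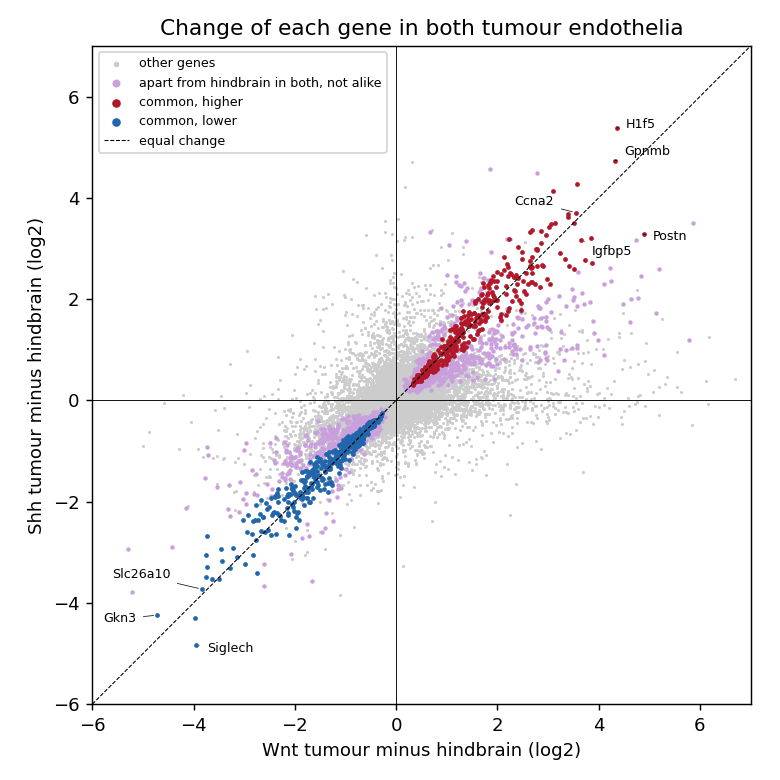
Each point is 1 of 22180 genes, with its log2 change from hindbrain in Wnt tumours on the x axis and in Shh tumours on the y axis. The 353 common genes that rose and the 360 that fell lie along the dashed line of equal change, and both changes share the same 8 hindbrain arrays. Genes apart from hindbrain in both tumours but outside the likeness limit lie off the line or near it, since a wide interval also fails the limit.

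Genes of mitosis stood out by number. Of 29 measured members of a mitosis list, 29 were called higher and 28 (96.6%) were common, against 1.59% of all genes. Their promoters are shown because the same short elements recur in them. The CCAAT box and the cell cycle genes homology region (CHR) are known to recur in promoters of genes that switch on late in the cell cycle. RefSeq promoter windows (GRCm38.p6, 250 bases before to 50 after a start) were at hand for 24 of the 28 common mitosis genes. A CHR, searched as TTTGAA on both strands, was present in 79.2% of them, against 17.8% of 16990 genes with such a window and 21.2% of common genes that rose outside the mitosis and DNA replication lists. CCAAT, again on both strands, was present in 79.2%, against 41.6% of all genes and 47.5% of those other risers. The variant TTCGAA was found in 12.5%, against 2.03% of all genes. Of the 12 motifs searched, both forms of the E2F site were found in 0.0% of these promoters, against 1.61% and 0.795% of all genes. With 24 promoters, finding none lies near these shares, so no lack of E2F sites can be read from it. Among common genes that fell, 15.3% held the CHR and 42.0% the CCAAT box.

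The promoters of 4 mitosis genes follow, each as 200 bases in the 5′ to 3′ direction of the gene, with matches to CCAAT and to both forms of the CHR in capitals, where matches on the other strand read ATTGG and TTCAAA. They are those of Cdk1 (chr10:69352863-69353062, minus strand), Mki67 (chr7:135716330-135716529, minus strand), Top2a (chr11:99024140-99024339, minus strand) and Kif11 (chr19:37376232-37376431, plus strand), all GRCm38.p6.
Cdk1: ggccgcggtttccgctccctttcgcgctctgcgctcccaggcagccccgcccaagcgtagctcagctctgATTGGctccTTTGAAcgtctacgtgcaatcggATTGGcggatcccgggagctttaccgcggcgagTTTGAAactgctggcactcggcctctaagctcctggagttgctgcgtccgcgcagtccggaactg
Mki67: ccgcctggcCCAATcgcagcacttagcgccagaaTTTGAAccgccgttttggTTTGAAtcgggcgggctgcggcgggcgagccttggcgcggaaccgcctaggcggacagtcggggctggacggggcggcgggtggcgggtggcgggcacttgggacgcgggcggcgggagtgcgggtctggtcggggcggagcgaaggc
Top2a: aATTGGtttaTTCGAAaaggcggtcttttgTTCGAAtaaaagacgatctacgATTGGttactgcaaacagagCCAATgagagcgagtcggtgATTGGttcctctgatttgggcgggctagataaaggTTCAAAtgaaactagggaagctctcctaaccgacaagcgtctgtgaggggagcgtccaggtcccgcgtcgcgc
Kif11: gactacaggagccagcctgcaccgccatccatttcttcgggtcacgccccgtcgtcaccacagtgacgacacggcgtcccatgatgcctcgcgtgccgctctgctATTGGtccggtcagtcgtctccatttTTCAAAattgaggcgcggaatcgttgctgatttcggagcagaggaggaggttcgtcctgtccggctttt
The stretch of Cdk1 holds 2 CCAAT boxes and 2 CHR matches, that of Mki67 1 and 2, that of Top2a 4 and 3 (the TTCGAA form included) and that of Kif11 1 and 1. A match describes these letters and was not tested for binding.

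Cyclin A2, encoded by Ccna2, drives cells through DNA copying into mitosis. Its deposited log2 value lay between 6.15 and 6.78 (median 6.38) in hindbrain, 9.04 to 10.97 (median 10.21) in Shh tumour and 8.98 to 10.47 (median 9.95) in Wnt tumour arrays. The lowest tumour array thus lay more than 2 log2 units above the highest hindbrain array, while the tumour groups overlapped almost wholly. The average rise was 3.63 ± 0.20 on the log2 scale or 12.4-fold (limma adjusted p = 4.79e-13), made up of 3.55 in Wnt and 3.71 in Shh tumours against the shared hindbrain arrays. Cdk1, the kinase that starts mitosis, rose from 5.72 to 6.67 (median 6.33) in hindbrain to 9.15 to 10.43 (median 9.98) in Shh tumour and 8.71 to 10.37 (median 9.77) in Wnt tumour arrays. Its average rise was 3.51 ± 0.19 (adjusted p = 4.12e-13), and Wnt minus Shh was -0.22 with a 95% interval from -0.68 to 0.23. Mki67, the gene of the proliferation marker Ki-67, read 6.32 to 7.46 in hindbrain, 9.32 to 10.94 in Shh tumour and 8.76 to 10.46 in Wnt tumour arrays, a rise of 3.22 ± 0.21 (adjusted p = 7.56e-12).

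The enzymes and motors that handle chromosomes rose by like amounts. Top2a, which untangles copied DNA, was higher by 3.12 ± 0.23 (2.96 in Wnt, 3.28 in Shh tumours), and the spindle motor Kif11 by 3.11 ± 0.23 (2.86 and 3.35). Bub1, a kinase of the checkpoint that holds back chromosome separation, was at least 6.93-fold higher, with 4 of 8 hindbrain arrays under the background described with the histones. Over the 28 common members the change ran from 0.99 for Cenpa, a histone of the centromere, to 3.63 for Ccna2. The difference between the tumours passed the threshold for 1 of the 28. The member left out was Ndc80, a kinetochore protein, which rose by 1.89 ± 0.22 (1.64 in Wnt and 2.14 in Shh tumours) and missed only the criterion of likeness.

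Levels of the mitosis genes varied more among tumour arrays than among hindbrain arrays. The mean of the 29 members lay between 5.95 and 6.28 in hindbrain, 7.59 to 9.12 in Shh tumour and 7.25 to 8.88 in Wnt tumour arrays, with Wnt array 4 lowest of the tumours. Markers of granule neuron precursors, the cells from which Shh tumours grow, moved with this in one tumour: their mean was 6.68 to 6.92 in hindbrain, 7.59 to 9.26 in Shh tumour and 6.62 to 7.05 in Wnt tumour arrays. Single members departed from this mean, and Sox11 and Sox4 rose in both tumours. The part of such cells in the rise of the mitosis genes was not tested, and no marker list of Wnt tumour cells was used. Wnt array 4 and Shh array 6 were lowest of their groups for mitosis genes. These 2 arrays had the highest endothelial marker means of their groups (11.25 and 11.83). Wnt array 2 and Shh array 7, highest for mitosis genes, were not the lowest for endothelial markers. The link between these means was not tested. With the endothelial marker mean as a covariate all 29 stayed called higher, 20 were called in both tumours and 3 were common. Without Wnt arrays 1 and 8, which had the lowest endothelial markers, 24 were common, and with 1 array left out the number ran from 24 to 29.

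DNA replication genes rose too, by smaller amounts, and fewer of them met the whole rule for common genes. Of 28 measured members 27 were called higher and 10 (35.7%) were common, against 22.7% and 1.59% of all genes, with a median change of 0.95 over the list. Pole, the catalytic subunit of DNA polymerase epsilon, read 4.75 to 5.63 in hindbrain, 6.83 to 8.78 in Shh tumour and 6.57 to 8.30 in Wnt tumour arrays, with 5 of 8 hindbrain arrays under the background of 5.24 described with the histones. It was called higher (adjusted p = 2.18e-10) and was at least 5.71-fold higher with these raised to it. A dimmer probe set of Pole changed by -0.10 and was not called (adjusted p = 0.427), so the gene's probe sets disagree. Rrm2, a subunit of the enzyme that makes DNA building blocks, was higher by 2.45 ± 0.22, the helicase subunit Mcm7 by 1.60 ± 0.16 and the epigenetic regulator Uhrf1 by 1.70 ± 0.17. E2f1, a transcription factor of the entry into replication, rose by 1.35 ± 0.18, from 6.48 to 7.58 in hindbrain to 7.90 to 9.17 in Shh tumour and 7.84 to 9.05 in Wnt tumour arrays. With the endothelial covariate 20 members stayed higher and none of the 28 was common.

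Linker and core histones, which package newly copied DNA, were also among the common rises. H1f5, a linker histone, read 3.67 to 4.82 (median 4.28) in hindbrain, 8.56 to 10.75 (median 9.60) in Shh tumour and 7.04 to 9.67 (median 8.79) in Wnt tumour arrays. All 8 hindbrain arrays lay under 5.24, the 95th percentile of the means of 92 control probe sets for sequences not from mouse (ERCC), used here as the background. The measured rise was 4.87 ± 0.28 (adjusted p = 1.14e-12), and with values under the background raised to it the rise was 3.91, so that H1f5 was at least 15-fold higher. H2bc12, a core histone, rose by 3.92 ± 0.26, from 4.99 to 6.28 in hindbrain to 8.46 to 10.88 in Shh tumour and 7.96 to 9.92 in Wnt tumour arrays. Among 26 measured genes of the histone clusters, a set chosen after the values had been seen, 11 were called higher, 2 lower, and 5 were common, which adds H2ac10, H2ac15 and H2bc3. The shares of all genes were 22.7% called higher, 21.6% lower and 1.59% common and higher. H2ac10 rose by 2.08 ± 0.19. H2ac15 lay under the background in 7 of 8 hindbrain arrays and was at least 5.83-fold higher in the tumours. H2bc3 rose by 1.76 ± 0.18 and was not common with quantile normalization, with the endothelial covariate or without Shh array 3 or 6 or Wnt array 1, 2, 6 or 7. Leaving out Wnt arrays 1 and 8 together also removed it from the common genes. Histone genes are near-identical copies of each other, so signal may be shared between them and the gene behind each value is uncertain.

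**Figure D2:**
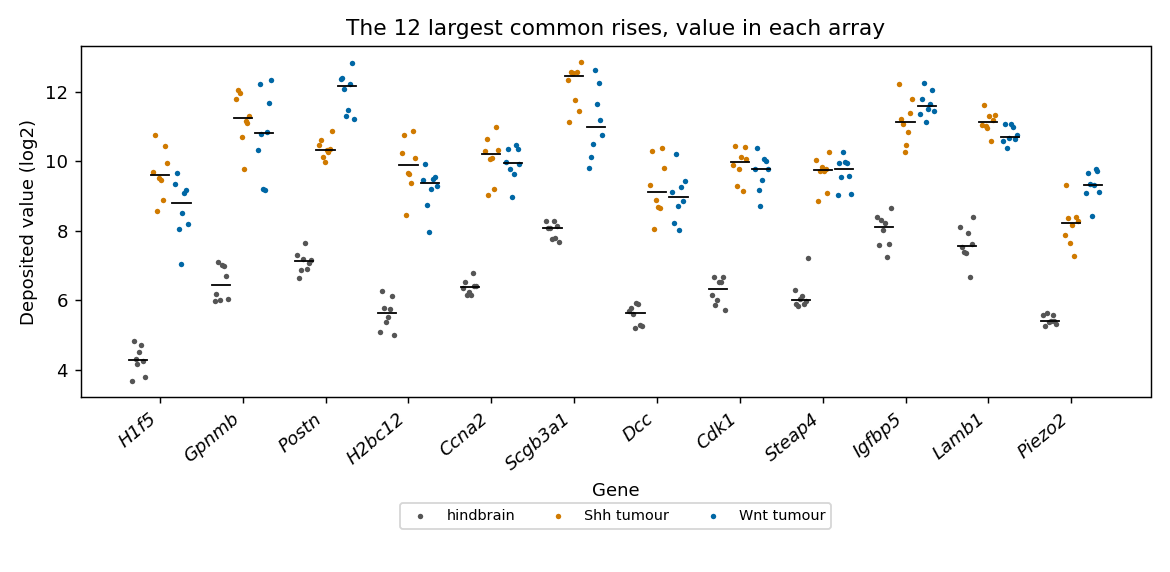
Deposited log2 values in each of 24 arrays are drawn for the 12 common genes with the largest measured average rise, in hindbrain, Shh and Wnt tumour arrays, with a bar at each group's median. For every gene the 16 tumour points lie above the 8 hindbrain points, as the rule requires, and Postn and Piezo2 lie higher in Wnt than in Shh arrays.

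Genes of sprouting vessels made up another group of common rises. Of 25 measured genes of tip cells and sprouting, 14 were called higher, 4 lower and 6 (24%) were common, all higher, against 22.7%, 21.6% and 1.59% of all genes. Aplnr, the receptor for apelin, a signal of growing vessels, read 7.56 to 8.52 (median 8.14) in hindbrain, 11.06 to 12.08 (median 11.50) in Shh tumour and 10.27 to 11.59 (median 10.67) in Wnt tumour arrays. Its average rise was 3.03 ± 0.16 or 8.15-fold (adjusted p = 3.47e-13), and it was lower in Wnt than in Shh tumours by 0.68 (adjusted p = 0.0056). Esm1, or endocan, a secreted proteoglycan of tip cells, read 5.11 to 6.06 in hindbrain, 7.35 to 9.83 in Shh tumour and 7.72 to 10.04 in Wnt tumour arrays, a rise of 3.07 ± 0.26 (adjusted p = 9.82e-10). Trp53i11 rose by 2.19 ± 0.11, from 9.66 to 10.40 in hindbrain to 12.24 to 13.04 in Shh tumour and 11.49 to 12.39 in Wnt tumour arrays. The remaining common members, Lamb1, Nid2 and Igfbp3, are described with the matrix and growth factor genes. With the endothelial covariate 5 members were common and higher and 1 was common and lower.

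None of 16 members of the VEGF and angiopoietin pathway was common, near the 1.59% and 1.62% of all genes, 6 being called higher and 5 lower. Of 10 measured venous genes Aplnr and Lcn2, a carrier of iron-binding compounds, were common and higher. Lcn2 read 6.84 to 7.79 in hindbrain, 9.09 to 10.66 in Shh tumour and 8.78 to 10.82 in Wnt tumour arrays, a rise of 2.72 ± 0.21 (adjusted p = 1.96e-10).

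Insulin-like growth factors reach their receptors under the control of binding proteins. Of 13 measured members of this system 9 were called higher, 1 lower and 4 (30.8%) were common, against 22.7%, 21.6% and 1.59% of all genes. With the endothelial covariate 2 were common. Igfbp5 and Igfbp3 encode such secreted binding proteins. Igfbp5 read 7.24 to 8.64 (median 8.11) in hindbrain, 10.26 to 12.23 (median 11.14) in Shh tumour and 11.13 to 12.24 (median 11.59) in Wnt tumour arrays. This was a rise of 3.40 ± 0.21 or 10.6-fold (adjusted p = 3.29e-12). Igfbp3 rose by 3.05 ± 0.19, from 8.24 to 9.58 in hindbrain to 10.84 to 12.51 in Shh tumour and 11.96 to 12.95 in Wnt tumour arrays, and was higher in Wnt than in Shh tumours by 0.92 (adjusted p = 0.00183).

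Igf1, the ligand itself, read 6.17 to 6.99 in hindbrain, 7.07 to 10.39 in Shh tumour and 8.98 to 9.94 in Wnt tumour arrays. Its rise of 2.69 ± 0.28 (adjusted p = 1.98e-08) varied widely among Shh arrays, and it was no longer common without Shh array 1, 2, 3 or 7 or with array weights. Macrophages are a known source of Igf1, and macrophage markers are given with Gpnmb. Igfbp7, a protein of the vessel wall, rose by a small and even amount, 0.39 ± 0.05 (0.40 in Wnt and 0.39 in Shh tumours). It was not common once arrays were shifted to the same median, nor with the endothelial covariate.

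Matrix genes rose in both tumours. Of 20 basement membrane genes 12 were called higher, 4 lower and 4 (20%) were common, against 22.7%, 21.6% and 1.59% of all genes. Lamb1, the beta-1 chain of laminin, read 6.68 to 8.40 (median 7.58) in hindbrain, 10.60 to 11.61 (median 11.12) in Shh tumour and 10.39 to 11.07 (median 10.71) in Wnt tumour arrays. The tumour arrays formed a narrow band above hindbrain, and the rise was 3.32 ± 0.16 or 10-fold (adjusted p = 3.11e-14). Nid2, which links laminin to collagen, rose by 1.64 ± 0.17, the collagen Col18a1 by 1.29 ± 0.11 and the proteoglycan Hspg2 by 1.12 ± 0.11. Nid2 and Hspg2 were not common once arrays were shifted to the same median, and Hspg2 was not common with the endothelial covariate either.

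Among 22 measured genes of the interstitial matrix 19 were called higher, none lower (3 missed the threshold) and 5 (22.7%) were common, or 2 with the endothelial covariate. The shares of all genes were 22.7% called higher and 1.59% common and higher. Periostin, encoded by Postn, a matrix protein of remodelling tissue, read 6.65 to 7.66 (median 7.12) in hindbrain, 9.98 to 10.87 (median 10.33) in Shh tumour and 11.21 to 12.82 (median 12.16) in Wnt tumour arrays. All 3 groups were apart. The rise was 4.08 ± 0.17 or 17.0-fold (adjusted p = 5.39e-15), and Wnt exceeded Shh by 1.61 (adjusted p = 4.17e-07), so that Postn was alike only by the measure relative to its large change. It lost that status without hindbrain array 2, Shh array 1, 2 or 8, or Wnt array 4, 5 or 8, and without Wnt arrays 1 and 8 together. It also lost it with quantile normalization, array weights, the replicate block and the endothelial covariate. Its rise ran from 3.96 to 4.16 over all alternatives. Col6a1 and Col6a2, chains of the same collagen, rose by 2.33 ± 0.18 and 1.99 ± 0.16. Col1a1, the main chain of fibrous collagen, rose by 2.13 ± 0.24 and the small proteoglycan Bgn by 1.18 ± 0.12.

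Enzymes and inhibitors of matrix turnover followed, with 12 of 18 called higher, 3 lower and 4 (22.2%) common, against 1.59% of all genes, or 1 with the endothelial covariate. Timp1, an inhibitor of metalloproteinases, read 5.62 to 6.39 in hindbrain, 8.81 to 10.71 in Shh tumour and 8.29 to 9.45 in Wnt tumour arrays, a rise of 3.27 ± 0.19 or 9.66-fold (adjusted p = 1.62e-12). The metalloproteinases Adamts12 and Adamts9 rose by 2.35 ± 0.19 and 1.71 ± 0.16, and Serpinh1, a chaperone of collagen, by 0.95 ± 0.08. Fibroblast markers were mixed: 6 of 13 were called higher and 3 lower, against 22.7% and 21.6% of all genes. Their mean lay between 8.29 and 8.91 in hindbrain, 8.98 to 9.91 in Shh tumour and 8.63 to 9.69 in Wnt tumour arrays, so that Wnt arrays overlapped with hindbrain. Col1a1, Col1a2, Dcn and Lum stand in both the fibroblast and the interstitial matrix list. Pericyte markers had medians of 9.92, 9.96 and 8.91 in these groups, with 1 of 13 called higher and 5 lower. The part of fibroblasts in the matrix rise was not tested.

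Several of the largest rises were in genes of no list. Piezo2, a mechanically gated ion channel, read 5.28 to 5.65 in hindbrain, 7.27 to 9.33 in Shh tumour and 8.44 to 9.77 in Wnt tumour arrays. Its rise was 3.29 ± 0.18 (adjusted p = 4.94e-13), larger in Wnt than in Shh tumours by 1.14 (adjusted p = 0.000101). Piezo2 was not common without Shh array 2, without Wnt arrays 1 and 8 together, or with array weights. Dcc, the netrin receptor of axon guidance, read 5.21 to 5.93 in hindbrain, 8.04 to 10.37 in Shh tumour and 8.02 to 10.21 in Wnt tumour arrays, a rise of 3.54 ± 0.26 (3.40 in Wnt, 3.68 in Shh tumours).

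Steap4, a metalloreductase, rose equally in both tumours, by 3.51 in Wnt and 3.50 in Shh, with values of 5.83 to 7.23 in hindbrain, 8.85 to 10.26 in Shh tumour and 9.02 to 10.28 in Wnt tumour arrays. Scgb3a1, a small secreted protein, read 7.69 to 8.29 in hindbrain, 11.12 to 12.86 in Shh tumour and 9.81 to 12.63 in Wnt tumour arrays. Its rise of 3.62 ± 0.28 was smaller in Wnt than in Shh tumours by 1.04 (adjusted p = 0.0136), and it was not common without Shh array 2 or Wnt array 4, 5 or 6.

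Gpnmb, a glycoprotein of lipid-laden macrophages and of pigment cells, was common as well. It read 5.97 to 7.10 (median 6.44) in hindbrain, 9.78 to 12.06 (median 11.23) in Shh tumour and 9.17 to 12.35 (median 10.82) in Wnt tumour arrays, an average rise of 4.53 ± 0.36 or 23.1-fold (adjusted p = 2.16e-10). Gpnmb is one of 11 measured macrophage markers and the single common one. Of the other 10, 3 were called higher and 2 lower, and their mean overlapped between the groups, with a median of 7.95 for hindbrain, 8.38 for Shh tumours and 8.02 for Wnt tumours. The highest single array reached 8.22 for hindbrain, 9.52 for Shh tumours and 8.26 for Wnt tumours. Their part in the rise of Gpnmb and Igf1 was not tested. Gpnmb was not common with the endothelial covariate, where its rise was 3.63.

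**Figure D3:**
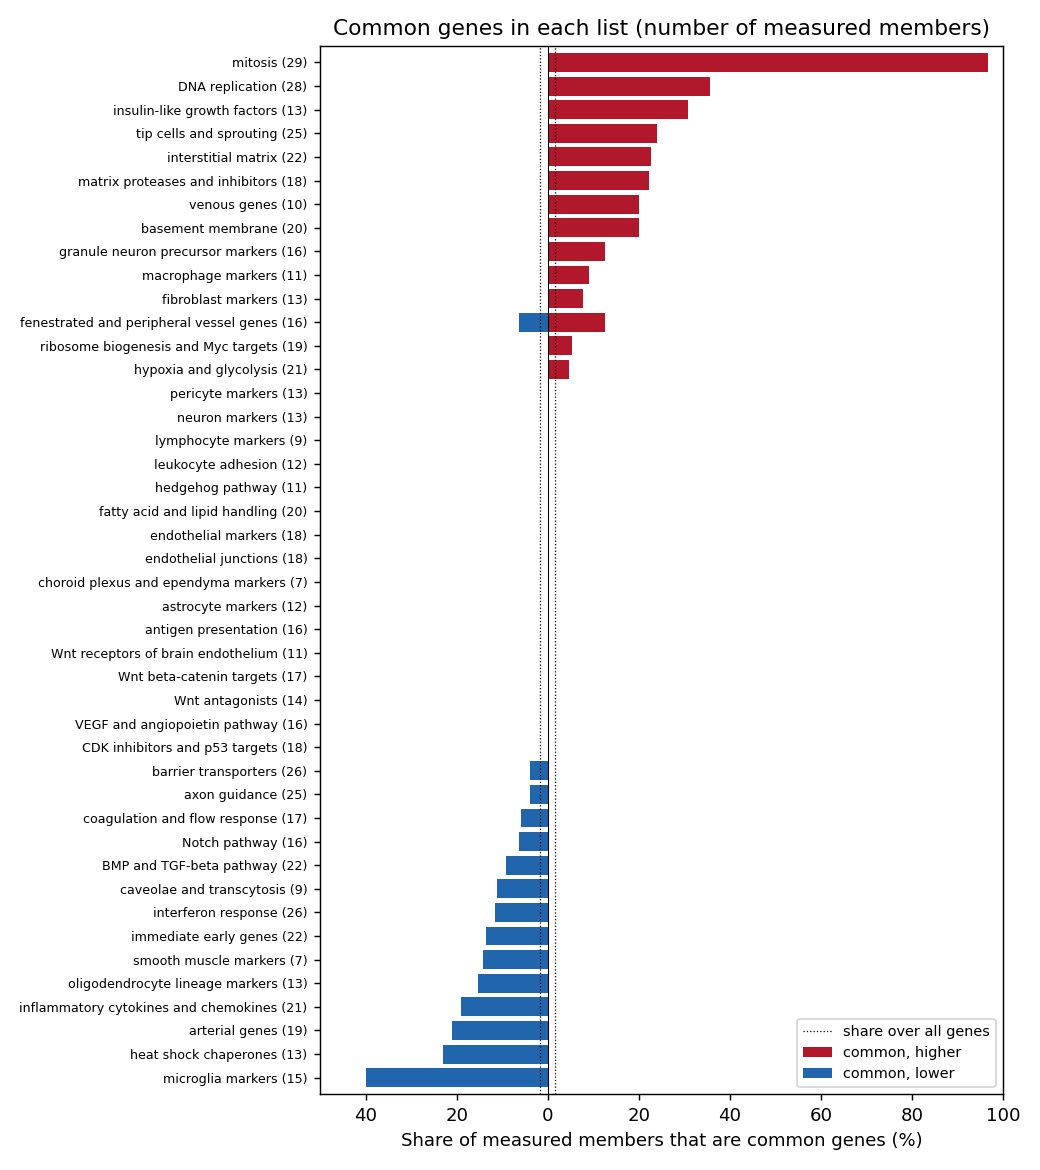
Bars give the share of each list's measured members that were common genes, in percent, to the right for genes that rose and to the left for genes that fell, with the number of measured members in brackets and dotted lines at the shares over all genes. Mitosis reaches 96.6% on the right and microglia markers 40% on the left, lists without a bar had no common gene, and a red blood cell list with 1 measured member is not drawn.

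Genes of microglia made up the clearest group among the falls. Of 15 measured microglia markers 14 were called lower, none higher, and 6 (40%) were common, against 1.62% of all genes. Siglech, a sialic acid receptor that marks microglia, read 10.25 to 11.37 (median 10.81) in hindbrain, 5.65 to 6.65 (median 6.02) in Shh tumour and 5.85 to 8.23 (median 6.85) in Wnt tumour arrays. Its fall was 4.39 ± 0.23 on the log2 scale, 21.0-fold (adjusted p = 2.62e-13), and deeper in Shh than in Wnt tumours (Wnt minus Shh 0.88, adjusted p = 0.0121). P2ry12, the receptor by which microglia sense ADP, read 10.49 to 11.25 in hindbrain, 6.47 to 9.67 in Shh tumour and 6.29 to 8.38 in Wnt tumour arrays, and its change was -3.20 ± 0.32 (adjusted p = 1.02e-08). The common members also included Cx3cr1 (-2.31 ± 0.26), the growth factor receptor Csf1r (-2.29 ± 0.28), Gpr34 (-2.57 ± 0.22) and the integrin Itgam (-2.55 ± 0.26).

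The mean of the 15 markers lay between 9.995 and 10.96 in hindbrain, 7.49 to 9.80 in Shh tumour and 7.39 to 8.93 in Wnt tumour arrays. No tumour array reached the marker mean of any hindbrain array. Fewer microglia and less of these RNAs per cell cannot be told apart. With 1 array left out the number of common markers stayed at 6, and with the endothelial covariate it was 2, with 14 still called lower. Several of the largest falls outside the list are in genes that myeloid cells are known to express, beside these marker levels, and the part of microglia in them was not tested. Selplg, the ligand of selectins on white blood cells, read 12.56 to 13.10 in hindbrain, 8.39 to 10.63 in Shh tumour and 7.50 to 10.26 in Wnt tumour arrays, a change of -3.41 ± 0.28 (adjusted p = 4.72e-10). Slc2a5, a fructose transporter found in microglia, read 8.73 to 10.65 in hindbrain, 4.85 to 5.39 in Shh tumour and 5.01 to 5.80 in Wnt tumour arrays. With the 5 Shh and 2 Wnt arrays under the background raised to it, Slc2a5 was at least 16.7-fold lower. P2ry13, another ADP receptor, changed by -3.07 ± 0.33.

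Genes of inflammation fell with them. Among 21 measured cytokine, chemokine and NF-kB genes 16 were called lower, 2 higher and 4 (19%) were common, all lower, or 1 with the endothelial covariate. The shares of all genes were 21.6% called lower, 22.7% higher and 1.62% common and lower. Tnf, the cytokine TNF-alpha, read 10.15 to 12.90 (median 11.84) in hindbrain, 7.21 to 9.35 (median 8.12) in Shh tumour and 6.62 to 9.67 (median 7.92) in Wnt tumour arrays. The spread within each group was wide and the tumour groups overlapped. Every tumour array lay below every hindbrain array, as the rule for common genes requires, and the change was -3.63 ± 0.36 (adjusted p = 8.11e-09). The chemokine Ccl4 read 9.60 to 11.65 in hindbrain, 6.21 to 8.35 in Shh tumour and 6.64 to 8.34 in Wnt tumour arrays, a change of -3.10 ± 0.29. Ccl3 changed by -2.07 ± 0.33 and was not common without Wnt array 5, with array weights or with the endothelial covariate. Nfkbiz, a nuclear regulator of NF-kB, changed by -1.95 ± 0.21.

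Further genes of innate immunity were among the 12 largest falls. Gpr84, a receptor for medium-chain fatty acids on immune cells, read 8.33 to 11.96 in hindbrain, 5.40 to 7.74 in Shh tumour and 5.64 to 6.79 in Wnt tumour arrays (-3.59 ± 0.39, adjusted p = 3.85e-08). Nlrp3, the sensor of the inflammasome, read 8.79 to 10.95 in hindbrain, 5.72 to 7.44 in Shh tumour and 5.55 to 7.03 in Wnt tumour arrays (-3.29 ± 0.29, adjusted p = 1.19e-09).

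**Figure D4:**
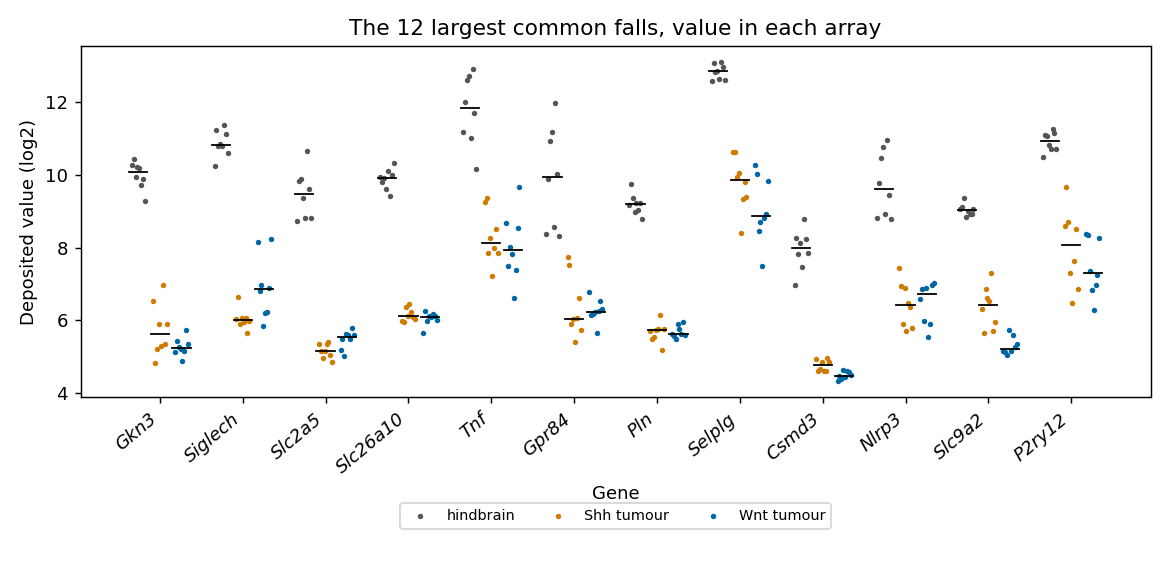
Deposited log2 values in each of 24 arrays are drawn for the 12 common genes with the largest measured average fall, with a bar at each group's median. For every gene the 8 hindbrain points lie above the 16 tumour points, as the rule requires, and Tnf and Gpr84 show the widest spread among hindbrain arrays.

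Arterial genes fell in both tumours. Of 19 measured 12 were called lower, 2 higher and 4 (21.1%) were common, against 21.6%, 22.7% and 1.62% of all genes. Gkn3, gastrokine 3, a marker of brain arteries, fell from 9.28 to 10.43 (median 10.07) in hindbrain to 4.84 to 6.96 (median 5.61) in Shh tumour and 4.89 to 5.73 (median 5.24) in Wnt tumour arrays. The change was -4.48 ± 0.20 (adjusted p = 1.28e-14), and with the 2 Shh and 4 Wnt arrays under the background raised to it Gkn3 was at least 21.4-fold lower. Bmx, a tyrosine kinase of arterial endothelium, read 8.76 to 9.39 in hindbrain, 6.12 to 8.05 in Shh tumour and 5.87 to 7.66 in Wnt tumour arrays, a change of -2.30 ± 0.21. The guidance factor Sema3g, which is also in the axon guidance list, changed by -1.92 ± 0.17 and the vasoactive peptide Edn3 by -2.17 ± 0.21. With the endothelial covariate 11 of the 19 stayed lower and 1 was common.

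Smooth muscle, which wraps arteries, moved the same way. Of 7 smooth muscle markers 6 were called lower and none higher, and their mean lay between 8.70 and 9.38 in hindbrain, 7.35 to 8.12 in Shh tumour and 8.03 to 8.93 in Wnt tumour arrays. Its contractile myosin Myh11 was common, with values of 9.28 to 9.85 in hindbrain, 6.48 to 7.20 in Shh tumour and 6.90 to 8.09 in Wnt tumour arrays and a change of -2.38 ± 0.13 (adjusted p = 3.24e-13). Pln, phospholamban, a regulator of the calcium pump of muscle, fell evenly, from 8.77 to 9.73 in hindbrain to 5.19 to 6.13 in Shh tumour and 5.49 to 5.96 in Wnt tumour arrays. Its changes were -3.50 in Wnt and -3.53 in Shh tumours (average -3.51 ± 0.10, adjusted p = 6.21e-18). The part of smooth muscle in the fall of arterial genes was not tested.

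Ion and nutrient transporters were among the deepest falls. Slc26a10, of the anion exchanger family, had the smallest p of the genes named here: it read 9.42 to 10.32 in hindbrain, 5.95 to 6.46 in Shh tumour and 5.66 to 6.26 in Wnt tumour arrays, a change of -3.78 ± 0.09 or 13.7-fold (adjusted p = 1.95e-19). Slc9a2, a sodium-proton exchanger, read 8.85 to 9.37 in hindbrain, 5.65 to 7.29 in Shh tumour and 5.04 to 5.72 in Wnt tumour arrays, and fell further in Wnt than in Shh tumours by 1.06 (adjusted p = 3.2e-05), with 4 Wnt arrays under the background. Slc6a6, the taurine transporter, read 12.50 to 12.72 in hindbrain, 10.31 to 11.40 in Shh tumour and 9.92 to 11.04 in Wnt tumour arrays, a change of -1.99 ± 0.13 (adjusted p = 1.39e-11).

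Slc6a6 was the single common gene among 26 measured barrier transporters. In the tumour average 23 of the 26 were called lower and none higher, but only 6 were called in both tumours, and the median change was -2.53 in Wnt and -0.21 in Shh tumours. Csmd3, a membrane protein with complement-related domains known from neurons, read 6.96 to 8.79 in hindbrain and under the background of 5.24 in all 16 tumour arrays. It was at least 6.50-fold lower in the tumours.

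Of 17 genes of coagulation and flow response 7 were called higher and 6 lower, against 22.7% and 21.6% of all genes. Klf4 was the single common one, where 1.62% of all genes were common and lower, so these counts set the list little apart. Klf4, a transcription factor that laminar blood flow keeps on in endothelium, read 11.25 to 11.85 in hindbrain, 8.86 to 10.40 in Shh tumour and 8.42 to 10.38 in Wnt tumour arrays, a change of -2.09 ± 0.20 (adjusted p = 4.24e-09). It was not common without Shh array 2, 7 or 8 or Wnt array 4 or 7, nor with quantile normalization, array weights or the endothelial covariate. Tcf15, a transcription factor of capillary endothelium that transports fatty acids, changed by -2.07 ± 0.11, from 7.41 to 8.68 in hindbrain to 5.60 to 6.09 in Shh tumour and 5.90 to 6.32 in Wnt tumour arrays. It went against the list of fenestrated and peripheral vessel genes in which it stands, where 10 of 16 were called higher and Esm1 and Igfbp5 were common.

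In the list of the BMP and TGF-beta pathways 12 of 22 measured genes were called lower, 8 higher and 2 (9.09%) were common, both lower. Shares over all genes, for this list and the Notch and caveolae lists, were 21.6% called lower, 22.7% higher and 1.62% common and lower. TGF-beta is a cytokine that steadies vessel walls. Its receptor Tgfbr1 changed by -1.50 ± 0.14 and the inhibitor Smad7, a target of the pathway, by -1.46 ± 0.12. Smad7 was not common without Shh array 3, 4 or 6 or Wnt array 3, 6 or 7. In the Notch list 9 of 16 were called lower and none higher, 7 missing the threshold, and Lfng, an enzyme that modifies the Notch receptor, was common at -0.98 ± 0.09. Cavin1, a coat protein of caveolae, was lower by 0.86 ± 0.08, the single common gene of 9 in its list.

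Stress and activation genes were lower in tumour arrays, and few of them met the whole rule for common genes. Of 22 immediate early genes, which cells switch on within minutes of a stimulus, 20 were called lower and 3 (13.6%) were common, against 21.6% and 1.62% of all genes. All 20 were called in both tumours, and 6 of the list differed between the tumours. Egr1 read 11.04 to 12.19 in hindbrain, 9.20 to 10.56 in Shh tumour and 9.28 to 10.96 in Wnt tumour arrays (-1.71 ± 0.21, adjusted p = 2.44e-07), Jund changed by -1.02 ± 0.11 and Jun by -0.78 ± 0.09. The mean of the list was 10.64 to 11.67 in hindbrain, 9.82 to 10.47 in Shh tumour and 9.51 to 10.88 in Wnt tumour arrays. All 13 measured heat shock genes were called lower and 3 (23.1%) were common, against the same shares over all genes. Of the 13, 9 were called in both tumours and 3 differed between them. The common ones were the chaperones Hsph1 (-2.06 ± 0.20), Hsp90aa1 (-1.44 ± 0.13) and Dnajb1 (-1.85 ± 0.12). With 1 array left out the number of common members ran from 3 to 6 for immediate early and from 3 to 4 for heat shock genes. With the endothelial covariate 1 immediate early and 3 heat shock genes were common.

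Interferon-response genes were called lower in 19 of 26 cases and higher in none, with 3 (11.5%) common, against 21.6%, 22.7% and 1.62% of all genes. Oas2, an antiviral enzyme, read 8.67 to 9.13 in hindbrain, 6.51 to 7.75 in Shh tumour and 5.78 to 7.74 in Wnt tumour arrays (-2.15 ± 0.18, adjusted p = 5.88e-10). Mx2, an antiviral GTPase, lay under the background in 4 Wnt and 2 Shh arrays and was at least 2.92-fold lower, and the transcription factor Irf1 changed by -1.69 ± 0.16. With the endothelial covariate 17 of the 26 stayed lower and none was common.

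Myelin genes mark the white matter of hindbrain. Mobp read 8.02 to 9.69 in hindbrain, 5.54 to 6.65 in Shh tumour and 5.57 to 6.10 in Wnt tumour arrays, a change of -2.62 ± 0.17 (adjusted p = 5.32e-12). Mag, an adhesion protein of myelin, lay under the background in 4 Shh and all 8 Wnt arrays and was at least 3.77-fold lower in the tumours. Of 13 measured genes of the oligodendrocyte lineage 7 were called lower and 3 higher, against 21.6% and 22.7% of all genes. Their means were 6.98 to 7.60 in hindbrain, 6.73 to 7.48 in Shh tumour and 6.30 to 6.68 in Wnt tumour arrays. These are not endothelial genes, and they are given as the level of another cell type in the arrays.

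**Figure D5:**
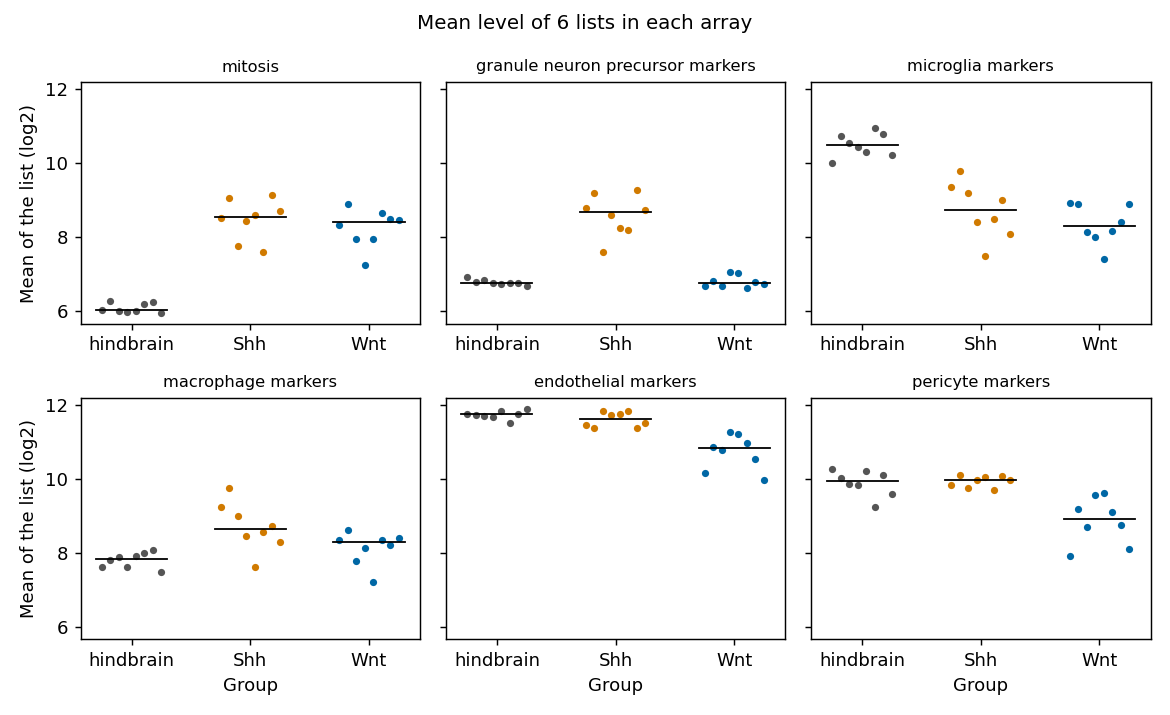
Points give the mean deposited log2 value of a list's measured members in each array, for 6 lists, with a bar at each group's median. Mitosis genes lie higher and microglia markers lower in both tumours, granule neuron precursor markers lie higher in Shh arrays alone, and endothelial and pericyte markers lie lowest in Wnt arrays.

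Lists of tumour cell markers and metabolism held 1 or 2 common rises each. Sox11 and Sox4, transcription factors of immature neurons, were common among 16 granule neuron precursor markers. This was 12.5%, against 1.59% of all genes common and higher, and 12 of the 16 were called higher. Sox11 read 5.29 to 6.43 in hindbrain, 7.05 to 8.71 in Shh tumour and 7.85 to 8.85 in Wnt tumour arrays, a rise of 2.50 ± 0.18 (adjusted p = 7.43e-11). Sox4 rose by 1.17 ± 0.10 and was not common without Shh array 2, 5 or 8 or Wnt array 3, 4 or 5. For the list the median change was 1.65 in Shh and -0.08 in Wnt tumours. Pkm, a glycolytic enzyme, rose by 0.34 ± 0.06 and was the single common gene of 21 of hypoxia and glycolysis, in which 12 were called lower and 5 higher. Pkm was not common with quantile normalization, the median shift or the endothelial covariate. Nor was it common without Shh array 2 or 8, Wnt array 3, or Wnt arrays 1 and 8 together. Srm, which makes spermidine, rose by 0.98 ± 0.10 as the single common gene of 19 of ribosome biogenesis and Myc targets.

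Many lists with called members held no common gene. Over all genes 1.59% were common and higher and 1.62% common and lower, so a short list with none lies near these shares. Called over all genes were 22.7% higher and 21.6% lower. None of 18 endothelial junction genes was common, with 11 called lower and 2 higher. Cldn5, the main claudin of the barrier, read 11.69 to 12.17 in hindbrain, 11.70 to 12.39 in Shh tumour and 9.24 to 10.95 in Wnt tumour arrays. It was called lower in the average (-1.02 ± 0.17, adjusted p = 2.13e-05) by its Wnt change of -2.06, with 0.02 in Shh tumours, and the call was lost with the endothelial covariate (-0.38, adjusted p = 0.0512). Plvap, the diaphragm protein of leaky vessels, was called higher in the average (2.56 ± 0.30) with 4.09 in Wnt and 1.02 in Shh tumours. None of 14 Wnt antagonists was common, with 10 called higher and none lower, and none of 11 hedgehog pathway genes, with 9 called higher and none lower. No common gene was found either among 17 Wnt beta-catenin targets (9 higher, 4 lower), 11 Wnt receptors (1 and 6), 16 antigen presentation genes (2 and 12), 12 leukocyte adhesion genes (4 and 4), 18 CDK inhibitors and p53 targets (5 and 4) or 20 genes of lipid handling (9 and 6). The same held for markers of neurons, astrocytes, lymphocytes and choroid plexus.

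Genes apart from hindbrain in both tumours but not alike numbered 455 higher and 356 lower, and 343 and 300 of these changed further in Wnt tumours. Part of them missed the limit only through the width of the interval. With the difference itself held to the limit, 592 higher and 586 lower genes were common. Fabp5, a fatty acid binding protein, rose by 5.87 in Wnt and 3.49 in Shh tumours, and Srpx2, a secreted protein, by 5.79 and 1.19. Clstn2 (5.14 and 1.72), Lrrn1 (5.19 and 2.59) and the Slit receptor Robo1 (4.73 and 3.16) also rose further in Wnt tumours, while Prnd, the prion-like protein doppel of growing brain vessels, rose by 2.78 in Wnt and 4.50 in Shh. Among falls, Sgpp2, an enzyme of sphingosine phosphate breakdown, changed by -5.30 in Wnt and -2.93 in Shh tumours, and the cytokine Il1a by -5.22 and -3.78. Degs2 (-4.15 and -2.12), an enzyme of lipid metabolism, also fell further in Wnt tumours. Tecrl lay under the background in 7 Wnt and 2 Shh arrays, and with these values raised to it the changes were -3.37 in Wnt and -2.77 in Shh tumours, which are bounds. The heat shock genes Hspa1a (-2.60 and -3.23) and Hspa1b (-2.61 and -3.66) missed likeness through the width of the interval, and their difference between tumours missed the threshold (adjusted p = 0.294 and 0.163).

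The limit between alike and not alike is one of degree. Just inside it lay Jpt2 (average 0.72, Wnt minus Shh -0.13) and Rabggtb (1.81, -0.40) among rises, and Stpg1 (-0.75, 0.19) and Haao (-1.01, -0.24) among falls. Just outside lay Flna (0.58, 0.16), Prelid1 (0.72, -0.22), Asb13 (-0.81, 0.15) and Polg2 (-1.63, -0.44). Of the 713 common genes 34 higher and 27 lower ones still differed between the tumours at an adjusted p under 0.05, and the largest such difference was that of Postn.

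For 51 common genes 117 further probe sets were measured. Of these 106 changed in the same direction, 97 were called in it and 1 was called in the opposite one, while 16 lay below the background. Syne1 alone accounts for 58 of the 117, all called in the same direction, and of the remaining 59, in 50 genes, 48 changed in the same direction and 39 were called in it. Among the listed genes, the second probe sets of Selplg (-3.34), Col6a1 (2.51), Sox4 (1.20) and Jund (-0.76) gave like changes, and that of Rrm2 a smaller one (0.50).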

How the data were processed

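RNA of sorted endothelial cells was hybridised to Affymetrix mouse arrays, 24 in all. The authors deposited log2 values for every probe set, judged from the range of the values. Per the submitters' processing notes Partek 6.6 was used, with no step named for it, and for normalization, background correction and build nothing is given in the sources used. Array medians lay between 5.97 and 6.18, and precision rests on the number of arrays.

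Of 41345 probe sets, 23521 had exactly 1 gene symbol in the platform annotation, and of several for a gene the one of highest mean was kept (22180 genes). Of these symbols, 99.2% matched RefSeq by gene ID. Deposited values were fitted without further normalization with limma 3.58.1 (R 4.3.3) through lmFit and eBayes, with group as the single factor, no variance trend and 21 residual degrees of freedom, two-sided, with Benjamini-Hochberg adjustment over 22180 genes. Values after ± are standard errors of log2 changes, and ranges give the lowest and highest of 8 arrays. Nothing in the labels ties arrays to separate animals beyond the word biological, so p-values measure the spread between these arrays.

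The members, the 32 function and 13 marker lists and the tests were chosen with earlier results of these data known, and the lists are described by counts. Named genes were the 12 largest common rises and falls, up to 2 per list and direction, the 6 largest changes not alike in each direction, the genes beside the likeness limit and a fixed set of sort antigen, genotype and barrier genes. Further common members of lists, histones and genes of no list were named after their values had been seen. The test was run on simulated data. Promoters were searched for 12 motifs on both strands. Alternatives were other ways of joining probe sets, quantile normalization, a median shift, array weights, a variance trend, removal of dim genes, a replicate block, the endothelial marker mean as a covariate, a single tumour group, other limits, leaving out each array and, added after seeing the data, leaving out Wnt arrays 1 and 8.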

Additional observations from a re-analysis of the deposited data

Results flagged for a closer look

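Among 126 named genes, 378 sets of 8 arrays were screened for a single array far from the rest, and 24 (6.35%) held one, near the 1 in 20 that chance gives. Wnt array 4 was highest for Degs2 (7.94, nearest 6.68), highest for Jund (11.19, nearest 10.56), lowest for Mki67 (8.76, nearest 9.69), lowest for Pole (6.57, nearest 7.49), highest for Tecrl (6.17, nearest 4.23) and highest for Jun (12.94, nearest 12.43). Hindbrain array 6 was lowest for Cldn5 (11.69, nearest 11.96), lowest for Col1a1 (7.08, nearest 7.35) and lowest for Bgn (11.51, nearest 11.96). Hindbrain array 8 was lowest for Dnajb1 (9.67, nearest 10.41), highest for Nid2 (8.87, nearest 8.52) and highest for Steap4 (7.23, nearest 6.31). Shh array 2 was lowest for Lcn2 (9.09, nearest 9.97), highest for Nid2 (11.03, nearest 10.30) and highest for Siglech (6.65, nearest 6.07). Shh array 6 was lowest for Adamts12 (8.03, nearest 8.71) and lowest for Thy1 (7.44, nearest 8.30). Wnt array 2 was lowest for Clstn2 (9.65, nearest 10.71) and highest for Mx2 (6.40, nearest 5.61). Hindbrain array 1 was highest for Col6a1 (8.33, nearest 7.79). Hindbrain array 7 was highest for Mobp (9.69, nearest 8.74). Wnt array 1 was lowest for Slc26a10 (5.66, nearest 5.98). Shh array 4 was highest for Jun (12.72, nearest 12.46). Shh array 3 was lowest for Ppbp (6.09, nearest 6.79). Values are deposited log2 values.

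The effect against hindbrain differed between the tumours, by limma's test of Wnt minus Shh over all genes, for 31 named genes. Of common genes, those higher in Wnt tumours were Postn (1.61, adjusted p = 4.17e-07), Piezo2 (1.14, adjusted p = 0.000101), Igfbp3 (0.92, adjusted p = 0.00183), Siglech (0.88, adjusted p = 0.0121), Cdh11 (0.77, adjusted p = 0.000554), Myh11 (0.53, adjusted p = 0.00571), Smad7 (0.41, adjusted p = 0.0263) and Sox4 (0.31, adjusted p = 0.0499). Common genes lower in Wnt tumours were Slc9a2 (-1.06, adjusted p = 3.2e-05), Scgb3a1 (-1.04, adjusted p = 0.0136), H1f5 (-1.02, adjusted p = 0.0148), Aplnr (-0.68, adjusted p = 0.0056) and Trp53i11 (-0.55, adjusted p = 0.0016). Other genes higher in Wnt tumours were Srpx2 (4.60, adjusted p = 2.69e-15), Clstn2 (3.42, adjusted p = 2.04e-12), Plvap (3.07, adjusted p = 1.13e-07), Lrrn1 (2.60, adjusted p = 5.74e-08), Fabp5 (2.38, adjusted p = 5.61e-09), Robo1 (1.57, adjusted p = 6.15e-06), Cdkn2c (1.19, adjusted p = 2.43e-05) and Flna (0.16, adjusted p = 0.0469). Lower there were Sgpp2 (-2.37, adjusted p = 5.29e-11), Cldn5 (-2.08, adjusted p = 6.73e-09), Degs2 (-2.03, adjusted p = 1.22e-05), Prnd (-1.71, adjusted p = 2.54e-05), Tecrl (-1.53, adjusted p = 0.000624), Il1a (-1.44, adjusted p = 0.0229), Pecam1 (-0.77, adjusted p = 0.000213), Eng (-0.62, adjusted p = 3.17e-05), Cdh5 (-0.48, adjusted p = 0.00103) and Prelid1 (-0.22, adjusted p = 0.00878). Values in parentheses are Wnt minus Shh on the log2 scale. For Tecrl 7 of 8 Wnt arrays and for H1f5 all 8 hindbrain arrays lay under the background.

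Probe sets outside the gene tests also met the rule for common genes. Of 1814 probe sets with several gene symbols 48 did, 23 higher and 25 lower, and of 15820 without a symbol 129 did, 25 higher and 104 lower. They name no single gene and are given as counts.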

How the results depend on the processing

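All 100 named common genes kept the direction and call of their average change under each of 35 alternative fits, and 35 of them were common under every one. They were chosen on these same arrays for passing the rule, and 24 of the fits only leave out 1 array. The kept calls were thus largely fixed by the choice and are no independent support. Another 43 were not common only when the mean of the endothelial markers was a covariate, and 22 lost likeness or separation under other settings. With that covariate the counts were 3256 called higher, 2934 called lower, 102 common and higher and 153 common and lower, and 582 of the 713 genes were still called in both tumours. The median shift gave 3741 called higher and 7577 called lower, with 270 common and higher and 484 common and lower. Other limits gave 616 higher and 605 lower common genes with the interval within 1 log2 unit, 592 and 586 with the difference itself, 808 and 716 with no likeness criterion, and 224 and 214 with a change of at least 1. With 1 array left out, 4639 to 5176 genes were called higher and 4463 to 4947 lower, 322 to 387 were common and higher and 337 to 397 common and lower, and 548 (76.9%) of the 713 were common each time. Deviations of same-numbered arrays from their group means had correlations from -0.146 to 0.282, over 0.1 in 3 of 24 pairs. Pairs of unlike number were not set beside them, so these values cannot decide whether the numbers pair samples. With the replicate block 4964 genes were called higher, 4688 lower, 353 were common and higher and 358 common and lower. Among other named genes, the direction turned for Cdh5 (0.217) and Pecam1 (0.0643) with the covariate and for Pik3ca (-0.0514) with the median shift, and that of Ptch1 ran from -0.118 to 0.0228 with 1 array left out, turning without hindbrain array 1 or Wnt array 7 (0.0136), and the cause was not tested. Endothelial marker level and tumour group are confounded in part, since Wnt arrays are lowest, and probe sets near the ERCC background give bounds only.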

Other observations

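Other common genes, chosen after their values had been seen, belong to no list. Gp9, a subunit of the von Willebrand factor receptor of platelets, read 8.62 to 10.34 in hindbrain, 5.98 to 6.64 in Shh tumour and 6.07 to 6.51 in Wnt tumour arrays, a change of -3.12 ± 0.15 (limma adjusted p = 7.62e-14). Ppbp, a platelet chemokine, read 8.42 to 9.83 in hindbrain, 6.09 to 7.21 in Shh tumour and 5.63 to 7.24 in Wnt tumour arrays, a change of -2.61 ± 0.19 (adjusted p = 4.12e-11). That both lay higher in every hindbrain array than in any tumour array is required by the rule for common genes.

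Cdh11 and Thy1, surface proteins that mesenchymal cells can carry, were among the rises. The lists of such cells were mixed or lower. Of 13 fibroblast markers 6 were called higher and 3 lower, of 13 pericyte markers 1 and 5, and of 7 smooth muscle markers 0 and 6. The shares of all genes were 22.7% and 21.6%. Cdh11, a cadherin, read 7.55 to 8.46 in hindbrain, 10.38 to 11.27 in Shh tumour and 10.99 to 12.40 in Wnt tumour arrays, a rise of 3.03 ± 0.14 (adjusted p = 3.11e-14). Thy1 read 5.96 to 6.55 in hindbrain, 7.44 to 9.04 in Shh tumour and 7.91 to 9.83 in Wnt tumour arrays, a rise of 2.35 ± 0.20 (adjusted p = 5.78e-10). Trpc6, a calcium channel, rose by 2.45 ± 0.25 and was not common without Wnt array 2 or 8 or with the endothelial covariate. Of division genes outside the lists, the ubiquitin-conjugating enzyme Ube2c rose by 2.54 ± 0.20, and Depdc1a, under the background in all 8 hindbrain arrays, was at least 4.07-fold higher in the tumours.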
